A study of Mus musculus with 2 samples.

Results

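Genes of the cilium, of the dynein motors and of the centrosome were examined in 2 samples of mouse cells. They were chosen by the symbol that the array's annotation gives, among them the families Ift, Bbs, Dnah, Dync, Dynl, Tctn, Cep, Arl, Rsph, Spag, Tekt, Ttll and Rfx. The rule found 98 of the 11484 genes measured. By family name and known role 85 of the 98 were placed with the cilium, dynein or centrosome, with the RFX and Cep families taken whole. Among them is Cep83os, a noncoding gene that carries its neighbour's name. The other 13 came in by name and were not placed there: 7 further genes of the ARL family and its effectors, and 6 SPAG and CC2D1 genes. Both samples were embryonic and of the strain C57/ICR. The parental cells were at passage 1 in medium with fetal bovine serum (FBS). The small-molecule-generated stem cells, for which the labels used here name no compound, were at passage 5 in embryonic stem (ES) cell medium. Passage and medium thus differed together with the treatment and cannot be told apart from it. The design text names 3 replicates per sample and calls one sample PEG cells, whereas the table analysed here held 1 column for each. No test between the groups was therefore possible, and no value has a replicate error.

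A cilium is a microtubule shaft that grows from a centriole, the cylinder at the heart of the centrosome. The primary cilium is immotile and serves as a signalling antenna, for hedgehog signals among others, whereas motile cilia and sperm tails carry axonemal dyneins that bend the shaft. Intraflagellar transport (IFT) particles move cargo along the shaft, the BBSome moves membrane proteins, and the transition zone gates the base. Cytoplasmic dynein is the motor that carries cargo toward the centrosome in nearly all cells. Transcription factors of the RFX family bind the X-box, a motif found in front of many cilium genes.

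The values were normalised probe intensities on a linear scale. The 25th percentile of each column, 93.8 in the parental and 93.4 in the generated cells, served as a floor, and a gene below it in both samples is called dim here. Where a gene fell below the floor in 1 sample, the floor stood in for that value, and the fold is a lower bound. Of the 98 genes 88 were above the floor in at least 1 sample, and 10 were dim in both. The identity of the samples was read from fixed markers. Of 8 measured pluripotency markers 7 were 2-fold or more higher in the generated cells. The 8 summed to 726 in the parental and 106303 in the generated cells. Nanog, the exception, was at 77.7, below the floor, and 94.7, just above it. Motile ciliated cell markers summed to 3572 and 3089 over 6 genes, of which 2 were higher and 1 was lower. Both measured male germ cell markers differed by less than 2-fold. Of the 10 mesenchymal markers listed only Thy1 was measured, at 40943 and 117. Leukocyte markers summed to 7734 and 13189 over 7 genes, of which 4 were lower and 1 was higher, and none was at 0. Without Laptm5 (1287 and 12204), the other 6 summed to 6447 and 985. Their part in the results below was not tested. In such bulk samples fewer cells of a type and less RNA per cell cannot be told apart.

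Of the 88 cilium, dynein and centrosome genes above the floor, 19 (21.6%) were higher in the generated cells by at least 2-fold and 20 (22.7%) were lower. Over all 9766 genes above the floor those shares were 20.5% and 20.8%, so the group as a whole differed about as often as any gene of the array. The median log2 difference, generated minus parental, was 0.13 in the group and 0.10 over all genes. At 4-fold or more 6 members were higher and 5 were lower, where 6.32% and 9.15% of all genes were. By role, RFX factors and tubulin ligase-like enzymes had members that were higher and none that was lower, IFT and BBS genes had members that were lower and none that was higher, and centrosome genes went both ways. The groups are small, with 2 of 10 IFT genes lower, which is close to the share over all genes, and none of these contrasts between roles was tested.

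**Figure D1:**
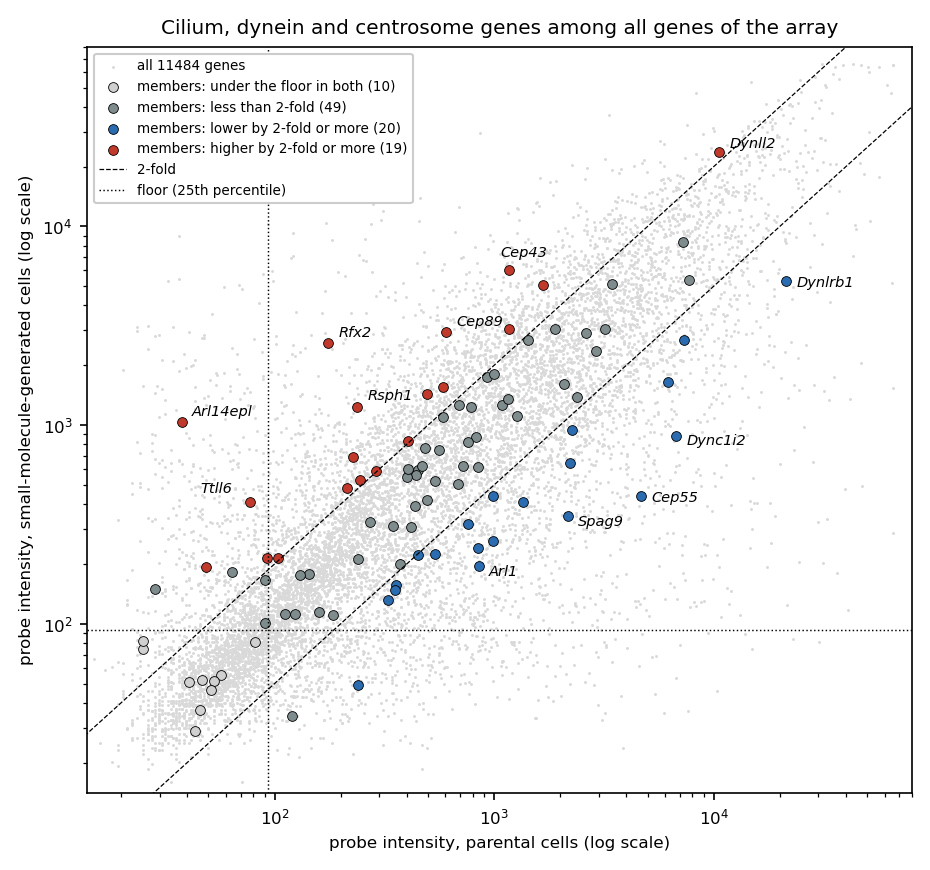
Probe intensity in the parental cells (x axis) and the small-molecule-generated cells (y axis), both on log scales, for all genes (small grey points) and the 98 cilium, dynein and centrosome genes (large points, coloured by size of the difference). Dashed lines mark 2-fold and dotted lines the floors; the 19 higher members lie toward the upper left, the 20 lower ones toward the lower right, and the 10 dim ones in the corner below both floors.

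The error of a single probe was wide in comparison. In 602 genes read by a pair of probes, the log2 differences of those probes scattered around the gene's own with an SD of 1.05, or 2.07-fold. Spread between cultures or arrays is not part of that figure. Of the 98 members 95 had 1 probe. Differences close to 2-fold are within that error. Of the 39 members past 2-fold only 10 differed by at least 2 SD.

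Promoters were compared for the X-box because it is a feature that the naming rule did not use. Of the 98 genes 87 had an entry in the RefSeq promoter table (GRCm38.p6), which holds 250 bases before and 50 after each annotated start. The full X-box of 13 or 14 bases was searched on both strands as GT, any 2 bases, CC, any 2 or 3 bases, G, any base and AAC. It was present in 20 of the 87 genes (23.0%), against 4.75% of 9166 array genes and 4.22% of all 27025 genes in the table. Per promoter, 3.68% of the 32851 in the table held it. The 6-base core GTTGCC, which a full match may contain, was present in 33 of the 87 genes (37.9%), against 14.6% of array genes, and 11 genes had both. Median GC content was 59.7% in the promoters of members and also in those of all array genes. A match is a run of letters and not a measured binding site.

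The matches of 8 members are shown as examples of this feature, from BBS, transition zone, axoneme, light chain and centrosome genes, with the match in capitals and up to 8 bases on each side, read in the direction of the gene on GRCm38.p6. Positions count the first base of the match from the annotated start site, negative before it.
Bbs7 at -121, chr3:36613489-36613518, minus strand: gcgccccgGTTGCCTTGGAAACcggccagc
Nphp4 at -231, chr4:152477903-152477932, plus strand: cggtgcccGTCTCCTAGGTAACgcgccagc
Tctn3 at -140, chr19:40612351-40612379, minus strand: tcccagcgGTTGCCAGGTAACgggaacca
Tctn1 at 37, chr5:122264411-122264432, minus strand: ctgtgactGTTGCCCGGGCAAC
Tekt2 at -29, chr4:126325697-126325725, minus strand: agggggcgGTTGCTCGGCAACcagagccg
Dynlrb2 at -51, chr8:116504956-116504984, plus strand: cctgcctgGTTGCCTAGCAACgggggaag
Cep19 at 23, chr16:32099803-32099832, plus strand: agccttctGTTGCCTTGGGAACgatcctcg
Cep83 at -14, chr10:94688768-94688797, plus strand: ccctccgaGTTTCCCGGGCTACctcaacct

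Ift57 was the member with an X-box match of each spacing, at -87 and -60. Its 250 bases before the start site, chr16:49699044-49699293 on the plus strand of GRCm38.p6, are shown with both matches in capitals.
Ift57: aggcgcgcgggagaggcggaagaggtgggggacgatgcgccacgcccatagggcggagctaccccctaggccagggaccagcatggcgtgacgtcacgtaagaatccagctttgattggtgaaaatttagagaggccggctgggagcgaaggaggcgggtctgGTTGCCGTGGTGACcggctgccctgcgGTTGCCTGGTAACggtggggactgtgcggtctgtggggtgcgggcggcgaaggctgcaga

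Genes with a full match were set beside the other members. None of the 20 genes with a full match was 2-fold higher in the generated cells, 6 were lower (Bbs7, Ift57, Cep83os, Nphp4, Tekt2 and Arl16), 11 differed by less than 2-fold and 3 were dim. With the floor at the median Cep83os, Nphp4, Tekt2 and Arl16 were not past 2-fold. Among all 87 genes with an entry 16 were higher and 19 were lower. Over the 372 genes of the array above the floor with a full match, 21.0% were higher and 21.5% were lower. The median log2 difference was -0.16 over the 17 above the floor and 0.32 over the 61 members above the floor without a match. Of the 24 matches 18 lay before the start site and 6 after it, with the site shared by Cep83 and Cep83os counted for each. All 3 genes given the transition zone role had one, as did 2 of 4 BBS genes, 3 of 7 axoneme genes and 5 of 25 centrosome genes. So did 2 of 6 ARL genes not placed with the cilium (Arl14ep and Arl16). A full match was also in 2 of 8 IFT genes and 1 of 5 axonemal dynein genes. It was in 1 of 8 tubulin ligase-like enzymes and 1 of 10 cytoplasmic dynein and light chain genes. None of the 5 RFX genes had one, nor did Cep290, a transition zone gene counted here with the centrosome genes.

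**Figure D2:**
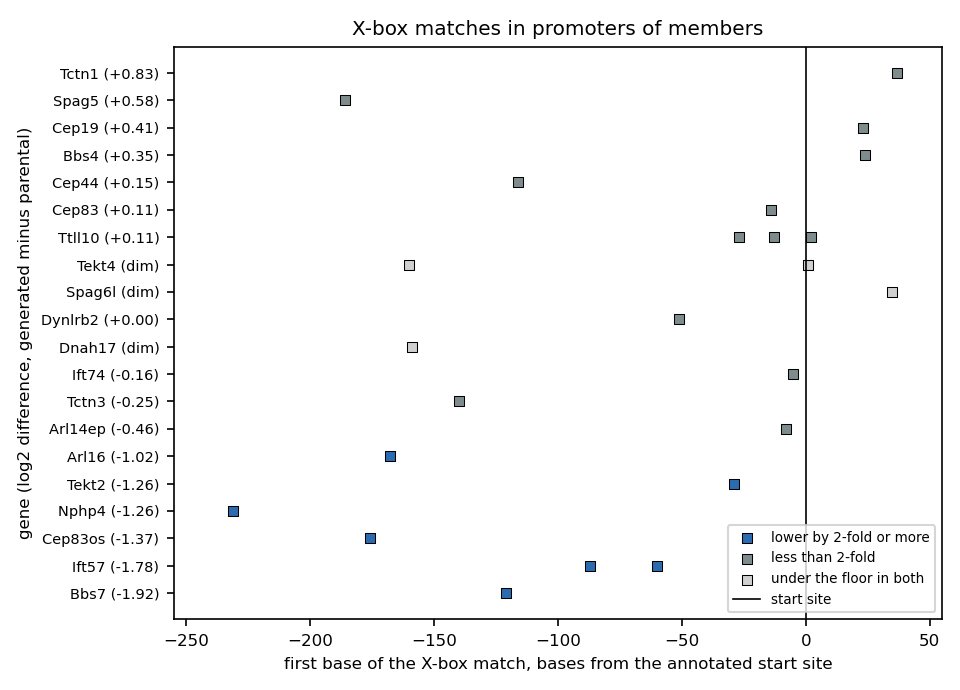
Position of each full X-box match (x axis, bases from the annotated start site) in the promoters of 20 members (rows, ordered by log2 difference, generated minus parental, given beside the gene; dim means under the floor in both samples). The 6 lowest rows are the genes that were lower by 2-fold or more, and no gene with a match was higher by 2-fold.

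The RFX factors themselves were higher or differed little. Rfx2, which with its relatives drives cilium genes in vertebrates, was at 176 in the parental cells and 2585 in the generated cells, a 14.7-fold difference and the largest of any member above the floor in both samples. Rfx7 was at 584 and 1559, 2.67-fold higher. Rfx1, the founding member of the family, was at 404 and 827, 2.05-fold higher, which is close to the 2-fold line, and after intensity-dependent centring or with an offset of 50 it was under it. The remaining factors differed by less than 2-fold. Rfx6, a factor of pancreatic islet development, was at 486 and 768, and Rfx5, which acts on MHC class II genes, was at 417 and 306.

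The promoter of Rfx2, the factor with the largest difference, is shown from its 250 bases before the start site, chr17:56831009-56831258 on the minus strand of GRCm38.p6. It held no full X-box match and 1 core GTTGCC, in capitals.
Rfx2: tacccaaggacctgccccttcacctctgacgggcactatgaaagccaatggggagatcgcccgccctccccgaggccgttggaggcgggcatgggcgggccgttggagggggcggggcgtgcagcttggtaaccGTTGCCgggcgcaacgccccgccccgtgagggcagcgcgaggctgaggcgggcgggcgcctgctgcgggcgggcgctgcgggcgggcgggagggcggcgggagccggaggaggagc

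The IFT genes were all above the floor in at least 1 sample, and most differed little. Of 10 measured genes 2 were lower by 2-fold or more, against 20.8% of all genes above the floor. None was higher, against 20.5%, and the median log2 difference was -0.11. Both lower genes belong to the IFT-B complex, which works in transport toward the tip. Ift57 was at 2215 and 646, 3.43-fold lower, and Ift52, a core subunit, was at 984 and 438, 2.25-fold lower. The other 6 measured IFT-B genes differed by less than 2-fold. Ift172 was at 1897 and 3058, Ift46 at 449 and 594.5, and Ift27, a small GTPase, at 3206 and 3054. Ift74 was at 347 and 311, and Ift80 at 687 and 503. Ift88, the gene mutated in a classic mouse model of polycystic kidney disease, was at 120.0 in the parental cells and 34.4 in the generated cells, below the floor, a fold of at least 1.28. Both measured genes of IFT-A, which returns cargo to the base, were under 2-fold, Ift140 at 1424 and 2681 (1.88-fold higher) and Ift122 at 1083 and 1257.

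Of 4 measured BBS genes, named for Bardet-Biedl syndrome, 2 were lower by 2-fold or more and none was higher. Of all genes above the floor 20.8% were lower and 20.5% were higher. The BBSome subunit gene Bbs7 was at 992 and 262, 3.78-fold lower. Bbs10, related to chaperonins that help the complex assemble, was at 358 and 156, 2.30-fold lower, and with an offset of 50 or the floor at the median it was under 2-fold, which left 1 of the 4 lower. The subunit genes Bbs4 (441 and 561) and Bbs9 (400.0 and 551) were slightly brighter in the generated cells, by less than 2-fold. Among transition zone genes Nphp4, which encodes nephrocystin 4, was at 355 and 148, 2.40-fold lower. The tectonic genes went separate ways within 2-fold, Tctn3 at 496 and 417 and Tctn1 at 90.7, below the floor, and 167. Arl2bp, which encodes a binding partner of the GTPase ARL2, was at 2266 and 940, 2.41-fold lower.

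**Figure D3:**
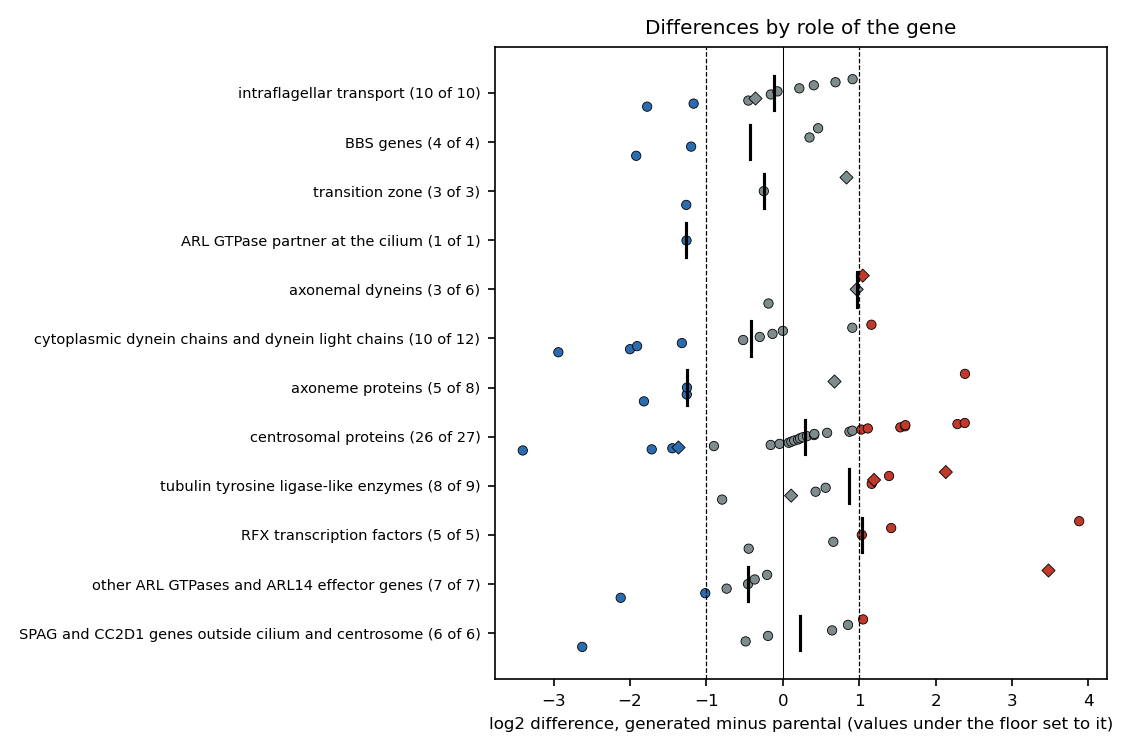
Log2 difference, generated minus parental, of each member above the floor (points), by role of the gene (rows, with the number above the floor of the number measured). Diamonds are lower bounds, thick bars are medians and dashed lines mark 2-fold; RFX factors and tubulin ligase-like enzymes have no point beyond the left line, and IFT and BBS genes none beyond the right line.

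Genes of cytoplasmic dynein were split between subunits. Of 12 measured genes of its chains and of the dynein light chains 4 were lower, 1 was higher and 2 were dim. Their median log2 difference was -0.41. Over all genes above the floor 20.8% were lower and 20.5% were higher. Dync1i2, an intermediate chain that links the motor to dynactin, was at 6725 and 877, 7.67-fold lower. The heavy chain gene Dync1h1, the motor itself, was at 7708 and 5377, 1.43-fold lower. The light intermediate chain genes were also under 2-fold, Dync1li2 at 2896 and 2349 and Dync1li1 at 124 and 112. The intermediate chain thus differed more than the other measured core subunits, each read by 1 probe. Of those, Dync1li1 lay near the floor, and the contrast was not tested.

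Several dynein light chain genes have a near copy in the genome. Dynlrb1, a roadblock-type chain, was at 21356 and 5338, 4-fold lower, while its paralog Dynlrb2, known from ciliated tissues, was at 112 in both samples. The LC8 chains, small hubs that bind many proteins, differed in opposite directions: Dynll1 was at 329 and 131, 2.50-fold lower, and Dynll2 was at 10590 and 23645, 2.23-fold higher. The difference of Dynll2 was under 2-fold after intensity-dependent centring, and that of Dynll1 was under 2-fold with the floor at the median. How far probes separate such near copies was not tested here, since probe sequences were not used. Dynlt3, a Tctex-type chain, was at 6161 and 1642, 3.75-fold lower. Tctex1d2, a light chain of the dynein of cilia, was at 926 and 1738, 1.88-fold higher. The heavy chain of that dynein, Dync2h1 (45.9 and 36.8), was dim in both samples, and so was Tctex1d4 (43.4 and 28.8).

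Among genes of the dynein of motile cilia, every measured heavy chain gene was below the floor in the parental cells. Of 6 measured genes 3 heavy chain genes were dim in both samples, Dnah3 (57.0 and 55.2), Dnah10 (25.2 and 74.4) and Dnah17 (81.7 and 81.2). The heavy chain gene Dnah8 was at 48.9, below the floor, and 194, at least 2.06-fold higher, but not past 2-fold with an offset of 50 or the floor at the median. Dnah1 was likewise under the floor at 64.0 and then at 183, at least 1.95-fold higher. Only Dnal4, a light chain gene, was above the floor in both samples, at 1273 and 1116.

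Other axoneme genes went both ways. Rsph1, a radial spoke head gene, was at 237 and 1238, 5.22-fold higher, whereas Rsph9 of the same spoke head was at 846 and 240, 3.53-fold lower. Among the tektins, filament proteins of ciliary microtubules, Tekt2 was at 539 and 226, 2.39-fold lower, and Tekt1 was under the floor at 28.4 and then at 149, at least 1.59-fold higher. Spag8, a sperm-associated gene, was at 762 and 319, 2.39-fold lower. Rsph6a (46.9 and 52.3), Spag6l of the central pair (40.6 and 51.0) and Tekt4 (52.9 and 51.8) were dim in both samples. Of 8 axoneme genes, then, 3 were lower, 1 was higher and 3 were dim. Of all genes above the floor 20.8% were lower and 20.5% were higher. With the floor at the median 2 axoneme genes were lower and 1 was higher.

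The tubulin tyrosine ligase-like enzymes, most of which add glutamate or glycine chains to tubulin, had higher members and no lower one. Measured were 9 genes, 4 of them higher and 1 dim, and the median log2 difference was 0.86. Over all genes above the floor 20.5% were higher. Ttll6 and Ttll8 were below the floor in the parental cells, and with the floor at the median of each column 1 of the 9 genes was higher. Ttll6, a glutamylase of cilia, went from 77.7, below the floor, in the parental cells to 411 in the generated cells, at least 4.39-fold higher. Ttll12, a divergent member of the family, was at 1169 and 3063, 2.62-fold higher. The glutamylase gene Ttll4 was at 214 and 480, 2.24-fold higher. Ttll8, a glycylase gene, was just under the floor at 92.6 and then at 214, at least 2.29-fold higher. Less than 2-fold were Ttll1 (406 and 598), Ttll5 (2391 and 1378, 1.74-fold lower) and Ttll10 (90.7, under the floor, and 101). Ttll13 (25.2 and 82.0) was dim. Ttll3 had 2 probes that did not tell the same, 1 at 92.6 and 177 and the other at 185 and 175, and its mean differed by 1.35-fold.

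Centrosome genes formed the largest role, and most differed little. Of 27 measured genes 7 were higher, 4 were lower (1 of them the noncoding Cep83os) and 15 were under 2-fold. Their median log2 difference was 0.29. Cep126, read by 2 probes, was dim. Of the 26 above the floor 26.9% were higher and 15.4% were lower, against 20.5% and 20.8% over all genes. After intensity-dependent centring 5 centrosome genes were higher and 5 were lower. Cep55 had the largest difference downward of any member, at 4674 and 442, 10.6-fold lower. Despite its name it acts at the midbody, where dividing cells are cut apart. Cep350, a large scaffold at the centriole, was 3.29-fold lower, and both of its probes were lower (1284 and 353, 3.64-fold, and 1428 and 481, 2.97-fold). Its known partner Cep43, also called FOP, went the other way at 1165 and 6064, 5.21-fold higher. Cep170b was at 7298 and 2677, 2.73-fold lower.

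Higher centrosome genes included parts of the mother centriole and of the satellites around it. Cep89, a gene of the distal appendages that dock the centriole to the membrane, was at 601 and 2927, 4.87-fold higher. Cep164 (1155 and 1350.0) and Cep83 (757 and 818), also of these appendages, were under 2-fold. Cep78, of the distal part of centrioles, was at 1678 and 5084, 3.03-fold higher. Cep70 was at 228 and 694, 3.04-fold higher, and Cep131, a satellite protein gene, at 496 and 1440.0, 2.90-fold higher. Close to the 2-fold line lay Cep290, a gene of the transition zone mutated in several ciliopathies, at 246 and 531 (2.16-fold), and Cep295, needed to turn new centrioles into centrosomes, at 289 and 589 (2.04-fold). Both were under 2-fold after intensity-dependent centring and with an offset of 50.

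Among the 15 centrosome genes under 2-fold were several that act in building centrioles. Cep152 and Cep63, which together recruit the kinase PLK4, were at 582 and 1094 and at 691 and 1265, 1.88-fold and 1.83-fold higher. Cep135, of the centriole's cartwheel, was at 435 and 390, Cep120, which lengthens centrioles, at 824 and 869, and Cep97, a cap protein gene, at 273 and 327. Spag5, which encodes the spindle protein astrin, was at 3435 and 5131, 1.49-fold higher. Cep57, of the material around the centriole, was at 374 and 200.2, 1.87-fold lower. The rest of the centrosome genes under 2-fold were Cep19, Cep20, Cep44, Cep57l1, Cep85 and Cep128, whose folds lay between 1.03 (Cep85) and 1.33 (Cep57l1).

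Cep83 and its noncoding neighbour Cep83os differed from each other. Their annotated start sites lie 177 bases apart on opposite strands and face away from each other, and the X-box match shown for Cep83 is read by both promoters. Cep83 was at 757 and 818, within 2-fold. Cep83os was at 241 in the parental cells and under the floor at 48.9 in the generated cells, at least 2.58-fold lower.

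**Figure D4:**
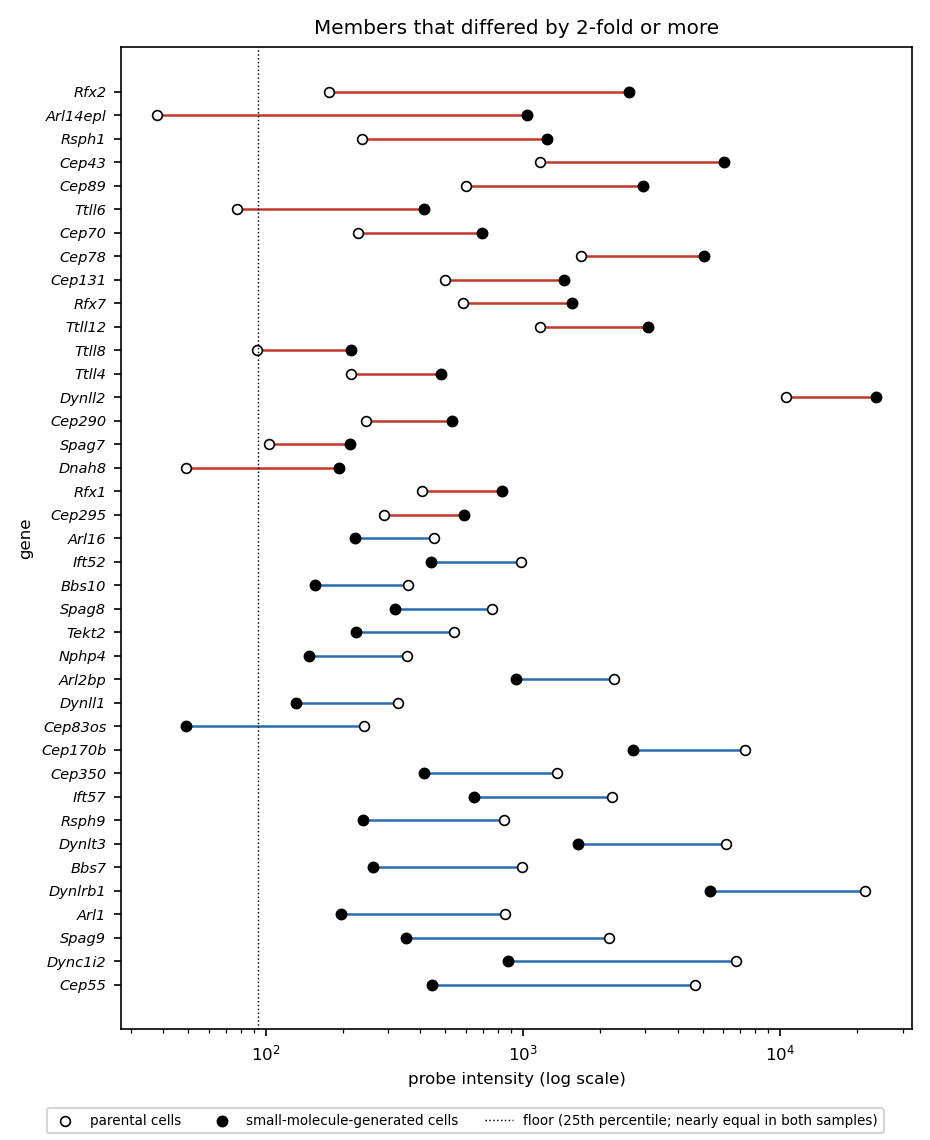
Probe intensity on a log scale (x axis) of the 39 members that differed by 2-fold or more, in the parental cells (open circles) and the small-molecule-generated cells (filled circles), ordered by log2 difference (bounded at the floor). Red lines mark the 19 higher genes, from Cep295 to Rfx2, and blue lines the 20 lower genes, from Arl16 to Cep55; the dotted line is the floor.

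The 13 members outside these roles had 2 higher and 3 lower genes (15.4% and 23.1%), against 20.5% and 20.8% over all genes above the floor. Arl14epl, a relative of the ARL14 effector gene Arl14ep, was at 37.8, below the floor, and 1037, at least 11.1-fold higher, while Arl14ep was at 841 and 613. Arl1, a GTPase of the trans-Golgi, was at 852 and 196, 4.35-fold lower, and Arl16 at 451 and 223, 2.02-fold lower, though not past 2-fold with an offset of 50 or the floor at the median. Spag9, which encodes the JNK-interacting scaffold JIP4, was at 2161 and 350.1, 6.17-fold lower. Spag7 was at 103 and 214, 2.07-fold higher, and was under 2-fold after intensity-dependent centring and with an offset of 50. Arl2, which acts on tubulin folding, was at 2076 and 1608, and Cc2d1a and Cc2d1b were at 1001 and 1807 and at 786 and 1228. Arl11, Arl15, Spag4 and Spag11a were also under 2-fold, with folds of 1.15 (Arl11), 1.67 (Arl15), 1.14 (Spag4) and 1.40 (Spag11a), all lower.

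Other genes of the same structures were taken from 7 lists of 195 genes, of which 121 were measured and 108 were above the floor. Of these 23 were higher and 23 were lower (21.3% each way), again close to the 20.5% and 20.8% over all genes. The single lists are small, and no difference of a list from all genes was tested. Dynactin and the adaptors of dynein had 6 of 16 genes lower and 1 higher, with a median log2 difference of -0.70. Ndel1, a regulator of dynein, was at 11543 and 841, 13.7-fold lower, Hook3, an activating adaptor, at 2112 and 516, 4.09-fold lower, and Pafah1b1, which encodes LIS1, at 3845 and 1349, 2.85-fold lower. Dctn2, a subunit of dynactin, was at 26115 and 30667, and Hook2 was 3.67-fold higher (519 and 1904).

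In the list of other centrosome and centriole genes 10 of 29 were higher and 5 were lower, with a median log2 difference of 0.40. Among all genes above the floor 20.5% were higher and 20.8% were lower. Haus1, a subunit of the augmin complex that branches spindle microtubules, was at 547 and 3913, 7.15-fold higher. Odf2, a gene of the mother centriole's appendages, was at 1143 and 6522, 5.70-fold higher. Nin, which encodes the appendage protein ninein, was at 449 and 94.7, 4.74-fold lower. Of 17 other transport genes 2 were higher and 3 lower, among them Ttc8, the BBSome subunit gene also called BBS8, at least 5.52-fold lower (515 and 26.5). Other transition zone and ciliopathy genes had 2 of 17 each way, with Fuz 2.39-fold higher (314 and 750.1) and Pkd1, the polycystin 1 gene, 2.56-fold lower (3001 and 1173).

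Genes of hedgehog signalling at the cilium had 4 of 8 lower and none higher. For this list and the next 2, the shares over all genes above the floor were 20.8% lower and 20.5% higher. The co-receptor genes Gas1 (13811 and 89.1, at least 148-fold), Cdon (4623 and 459, 10.1-fold) and Boc (776 and 114, 6.84-fold) were lower, and so was Smo, the signal transducer that enters the cilium, at 9899 and 1391, 7.12-fold. Gli2, a transcription factor of the pathway, was at 1626 and 2197, and its target Gli1 was dim (46.9 and 75). Genes of motile cilia and their transcription programme had 5 of 14 higher and 2 lower. Foxj1, the master factor of motile cilia, was at 286 and 689, 2.41-fold higher, Ccno, a cyclin gene of multiciliated cells, was under the floor at 62.9 and then at 658, at least 7.02-fold higher, and Ccdc114, a dynein docking gene, was at 118 and 863, 7.29-fold higher. Drc1, of the axoneme's dynein regulatory complex, was dim (23.6 and 48.3), and Gas8 of the same complex was 2.64-fold lower (2630 and 996). Tppp3, of the same list, was 2.41-fold lower (2815 and 1168). Gmnc (107 and 109) and Ccdc39 (115 and 125) differed little and lay near the floor. Of 7 cilium disassembly genes 3 were higher, with Hdac6, a tubulin deacetylase, at 1094 and 7287, 6.66-fold higher, whereas Aurka, the kinase that starts disassembly, was at 3291 and 4741, within 2-fold.

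**Figure D5:**
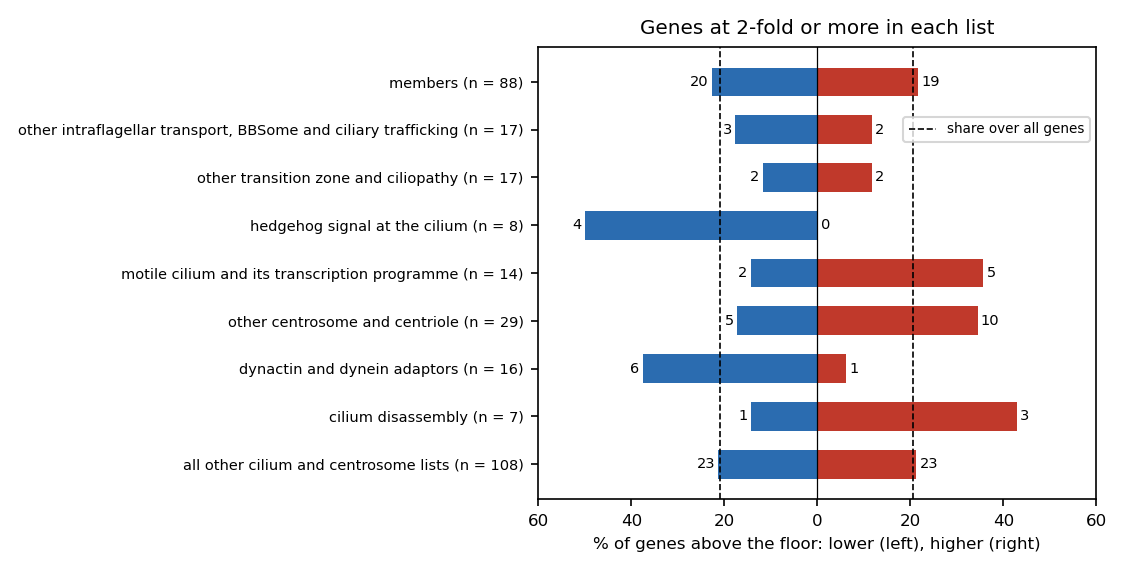
Share of genes above the floor that were lower (left, blue) or higher (right, red) by 2-fold or more in the generated cells, in percent, for the 88 members above the floor and for each list of other cilium and centrosome genes, with the number of genes at each bar's end. Dashed lines mark the shares over all genes, 20.5% higher and 20.8% lower, next to which the members and all other lists together lie.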

How the data were processed

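RNA was extracted with Trizol, cleaned on RNeasy columns, amplified, labelled with Cy5 and hybridised to a 1-colour Phalanx Mouse Whole Genome OneArray v2, per the labels' protocols. The values that the authors deposited are probe intensities, linear and already normalised. Scanner, background correction, normalisation and probe filter were not given in the sources used here. Medians were 304 and 305, and both columns had nearly equal quantiles, which would hide a difference in total signal. Whether a column is 1 array or a mean of several is not known here.

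Of 13989 probes 12380 carried 1 symbol, from the platform's annotation, brought up to date by Entrez identifier (12364 matched) with a RefSeq table (GRCm38.p6), used for names. Intensities were brought to log2 and probes averaged per gene. A gene was counted as higher or lower at 2-fold or more, with values under the 25th percentile set to it. X-box matches were searched in RefSeq promoters. The members, roles and lists were chosen with earlier results of these data known. All members may be named. From each other list up to 3 genes each way and up to 2 others that differed little were named, and Pafah1b1, Boc, Gli1, Foxj1 and Drc1 were added after their values were seen. The computation of the calls was checked on simulated data with large differences, bright probes and little noise. That check does not measure the error of the calls made here. Alternatives were median centring, quantile normalisation, lowess centring (span 0.3), the brightest probe, an offset of 50, other floors, a 4-fold rule and other choices of members; centring by probe class was chosen after seeing the data. Python 3.11.15, pandas 2.3.3, numpy 2.4.6 and statsmodels 0.14.6 were used.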

Additional observations from a re-analysis of the deposited data

How the results depend on the processing

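No paired analysis was possible because each group had 1 column of values, and for the same reason no sample could be left out. The counts of members higher or lower by 2-fold stayed within 1.5 times 19 and 20 under all alternatives but these: with the floor at the median 12 of the 72 members above it were higher, where 20.9% of all genes were, and at 4-fold 6 were higher and 5 lower. The median log2 difference of 0.13 became -0.017 after lowess centring, where that over all genes became -0.01. Counts of the other cilium and centrosome genes stayed within 1.5 times. Of the 39 members past 2-fold 24 (10 higher and 14 lower) kept their side of it in all 10 settings of normalisation, probes, floor and offset, and none of the 39 changed sign, though Dnah8, Cep83os, Ttll8 and Spag7 came to 0 with the floor at the median. Dim probes and the single probe of most members limit the precision.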

Other observations

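The X-box was also counted over the whole array. Of 7851 genes above the floor with a promoter entry 372 had a full match. Of these 78 (21.0%) were 2-fold or more higher in the generated cells and 80 (21.5%) were lower, against 20.6% and 20.7% of the 7479 genes without a match. The median log2 difference was 0.15 with a match and 0.11 without. Among genes with a match that are not members, chosen after their values were seen, Apoe, the apolipoprotein E gene, was at 861 and 29418, 34.2-fold higher. Hic1, a transcriptional repressor gene, was at 3410 and 105, 32.3-fold lower.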
